A study of Mus musculus with 6 samples.

Results

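The mouse zinc finger genes numbered in the Zfp900s are 62 genes whose symbols consist of Zfp9 and exactly 2 further digits, among 24927 rows in each of 6 liver transcriptomes. They were picked by name alone, outside a block of chromosome 1 rows at the top of the tables, where symbols did not match the values. The 62 genes lie on 11 chromosomes in the GENCODE M21 annotation (GRCm38), with 16 on chromosome 4, 13 on chromosome 17, 11 on chromosome 2, 9 on chromosome 7 and 5 on chromosome 8. The annotation gives 61 as protein coding and Zfp939 as a transcribed unprocessed pseudogene. RNA came from whole livers of C57BL/6 mice, an inbred strain, kept on a chow diet and labelled male and 10 months old. The 2 groups of 3 libraries are Cdkl3-/- (a knockout of Cdkl3, a cyclin-dependent kinase-like gene, described by the submitters as made in the liver) and wild type. How the knockout was made is not given in the sources used here. Values are FPKM, read fragments counted on a gene after division by its transcript length and by the size of the library.

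Most mouse genes with such numbers belong to the Cys2His2 zinc finger family, in which each finger folds around a zinc ion and contacts a few bases of DNA, and fingers are joined in tandem by a short conserved linker. Many also carry a KRAB domain, which recruits the co-repressor encoded by Trim28 and, through it, the histone methyltransferase encoded by Setdb1. KRAB zinc finger genes sit in clusters that arose by repeated duplication, differ between rodent strains, and are best known for silencing transposable elements. In mouse liver, members of the family such as Rsl1 are known to repress genes with male-biased expression. The targets of most numbered Zfp900s are not part of textbook knowledge, so roles are given below only for genes where one is established.

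The libraries did not match their labels in every respect. All 6 are labelled male, but Xist, the long non-coding RNA of the inactive X chromosome, measured 0.0273, 0.0239 and 0.0125 FPKM in the libraries labelled knockout, against 277, 192 and 292 FPKM in those labelled wild type. The Y-linked gene Ddx3y measured 50.8, 38.2 and 46.1 FPKM in the libraries labelled knockout, against 0.0694, 0.0831 and 0.207 FPKM in those labelled wild type. Sex by these transcripts and labelled genotype therefore cannot be told apart in any comparison below. Cdkl3 itself measured 0.0761, 0.146 and 0.195 FPKM in the libraries labelled knockout, against 0.166, 0.0883 and 0.119 FPKM in those labelled wild type, so the groups overlapped. Knockout replicate 1 also held kidney transcripts, with a summed level of 5278 FPKM over the kidney markers, nearly all of it Kap, where the other 5 libraries had 0.380 to 5.84 FPKM. Depth recovered from the values ran from 20460000 to 48610000 counted reads per library. Mitochondrially encoded transcripts took 63.2 to 70.1% of all FPKM in the libraries labelled knockout and 70.5 to 73.9% in those labelled wild type.

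Cell type markers also differed between the groups. The summed level of 8 hepatocyte markers was 2397 to 3666 FPKM in the libraries labelled knockout and 505 to 827 FPKM in those labelled wild type, and 6 of the 7 tested were higher. The summed level of 4 stellate cell markers was 21.3 to 32.2 FPKM in the libraries labelled knockout and 76.1 to 130 FPKM in those labelled wild type, and all 3 tested were lower. Col1a1, too low to test, went the other way. It measured 0.0399 to 0.0621 FPKM in the libraries labelled knockout and 0.0149 to 0.0376 FPKM in those labelled wild type. Markers of sinusoidal endothelium summed to 5.90 to 7.24 FPKM in the libraries labelled knockout and 10.8 to 11.8 FPKM in those labelled wild type, with 3 of 3 tested lower. The endothelial markers too low to test were not lower. Clec4g was at least 0.365 FPKM in the libraries labelled knockout and at most 0.338 FPKM in those labelled wild type. Stab2 overlapped, at 0.0512 to 0.113 FPKM in the libraries labelled knockout and 0.038 to 0.0558 FPKM in those labelled wild type. Pecam1 is given below. Kupffer cell markers overlapped between the groups, at 12.0 to 54.5 FPKM in the libraries labelled knockout and 15.9 to 33.2 FPKM in those labelled wild type. Of the 3 tested, Adgre1 was lower, with 2.42, 2.46 and 0.925 FPKM in the libraries labelled knockout, against 6.02, 5.53 and 5.34 FPKM in those labelled wild type, while Vsig4 and Cd5l, which carry most of the sum, were not called. Lymphocyte markers overlapped as well (0 of 1 tested called), at 0.768 to 6.68 FPKM in the libraries labelled knockout and 1.98 to 2.75 FPKM in those labelled wild type, and the 2 cholangiocyte markers present summed to 1.93 to 2.53 FPKM in the libraries labelled knockout and 0.446 to 1.12 FPKM in those labelled wild type, with the 1 tested, Sox9, higher. Alb, the albumin gene that defines hepatocytes, was at 743 to 1613 FPKM in the libraries labelled knockout and 261 to 425 FPKM in those labelled wild type, while Apoa1, another hepatocyte marker, was at 0.396 to 1.94 FPKM in the libraries labelled knockout and 0 to 0.0791 FPKM in those labelled wild type. The Kupffer cell markers Clec4f and Csf1r and the endothelial marker Pecam1 were listed at 0 in all 3 libraries labelled wild type. Pecam1 was at 0.0365 to 0.162 FPKM in the libraries labelled knockout. The part of these shifts in the zinc finger values was not tested, and in whole tissue fewer cells of a type and less RNA per cell cannot be told apart.

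The sequences below are shown because they show the family's repeated spacing and a stretch that 4 members hold in common. Each is the first stretch of 98 coding bases from the codons of 1 finger linker to those of the next, 84 bases on. Capitals mark the linker motif, 14 bases that run through codons starting with AC, GG, GA, AA and CC, with any base at the third position of the first 4. The stretches come from GENCODE M21 transcripts (GRCm38) of Zfp946, at chr17:22424222-22456689 on the plus strand, Zfp943, at chr17:21962552-22071168 on the plus strand, Zfp961, at chr8:71951038-71993792 on the plus strand, and Zfp966, at chr2:175918881-175931100 on the minus strand.
Zfp946: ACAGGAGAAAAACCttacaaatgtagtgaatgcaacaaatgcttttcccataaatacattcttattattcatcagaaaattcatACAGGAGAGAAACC
Zfp943: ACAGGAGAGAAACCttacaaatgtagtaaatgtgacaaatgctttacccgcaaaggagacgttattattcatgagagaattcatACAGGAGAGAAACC
Zfp961: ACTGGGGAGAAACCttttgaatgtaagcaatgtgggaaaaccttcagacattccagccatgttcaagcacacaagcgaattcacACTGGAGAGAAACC
Zfp966: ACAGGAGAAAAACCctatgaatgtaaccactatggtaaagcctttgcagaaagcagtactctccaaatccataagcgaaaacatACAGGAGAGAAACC

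The codon at the place of the second zinc-binding cysteine is a cysteine codon in the stretches of Zfp946, Zfp943 and Zfp961, but tat, a tyrosine codon, in that of Zfp966, which is thus not a complete Cys2His2 unit. The stretches differ in base composition, with 31.6% GC in Zfp946, 37.8% in Zfp943, 40.8% in Zfp966 and 44.9% in Zfp961. The linker motif occurred on the sense strand of the coding sequence in all 61 members that have one, with a median of 7 copies and a maximum of 16 in Zfp950, and 47 members had at least 5. Of 22527 mouse genes with a coding sequence, 2.35% had at least 1 copy and 1.15% had at least 5. The coding sequences of Zfp966, Zfp967, Zfp968 and Zfp969 were identical over 1455 bases, with 0 mismatches in every pair, so reads from their coding parts cannot be assigned to 1 of these 4 genes.

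Most Zfp900s were detected in every library, over a wide range of levels. Values above 0 were listed for 58, 59 and 59 of the 62 genes in knockout replicates 1 to 3, and for 60, 57 and 57 in wild type replicates 1 to 3. No member was at 0 in every library, and 54 were above 0 in all 6. At a level of at least 0.1 FPKM, 52, 50 and 53 genes were detected in the libraries labelled knockout, against 48, 50 and 51 in those labelled wild type. At 1 FPKM, the counts were 38, 37 and 40 in the libraries labelled knockout and 37, 38 and 38 in those labelled wild type, so the groups overlapped at each of these levels. The groups separated at 10 FPKM, which 10, 10 and 11 members reached in the libraries labelled knockout, against 20, 21 and 26 in those labelled wild type. Over all usable rows the order at 10 FPKM was the other way, with 1652, 1687 and 1671 genes in the libraries labelled knockout and 1559, 1499 and 1569 in those labelled wild type. The summed FPKM of the 62 genes was 317, 286 and 303 in the libraries labelled knockout, against 611, 700 and 867 in those labelled wild type, with no overlap.

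To ask which Zfp900s differed between the groups, log2(FPKM + 1) was fitted with limma over the 5673 genes that reached 1 FPKM in 3 or more of the 6 libraries, and a Benjamini-Hochberg adjusted p under 0.05 over all of them was taken as a call. Of the 62 genes, 39 entered the fit. Among those, 28 were lower in the libraries labelled knockout and 4 were higher, while 7 were not called. The 28 lower genes were 71.8% of the 39, where 20.4% of all tested genes were lower, and the 4 higher genes were 10.3%, where 33.7% of all tested genes were higher. The median log2 difference was -0.97 over the 39 genes and 0.12 over all 5673. With each library centred on its median, which shifts every log2 difference by -0.28, 28 members were lower and 2 higher, where 33.3% of all genes were lower and 25.4% higher. Leaving out each library in turn gave 24 to 27 lower members, with 27 without knockout replicate 1, the library that held kidney transcripts.

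Most of the falls were in genes above the filter in both groups. Of the 39 tested genes, 33 had at least 1 FPKM in all 6 libraries, as did 27 of the 28 lower genes. The exception was Zfp991, at 0.650 FPKM in knockout replicate 2. Every value in the libraries labelled knockout lay below every value in those labelled wild type for 27 of the 39 genes, where the same held for 25.8% of all tested genes, and the opposite held for 4 genes, where the share of all tested genes was 38.0%. Ratios of the knockout mean to the wild type mean among the 28 lower genes ran from 0.197 to 0.661 with a median of 0.391, and 21 were below 0.5. Wild type replicate 3, the library of lowest depth, held the highest value for 25 of the 28 genes. Without it 24 members were lower and the median log2 difference over the 39 was -0.84.

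**Figure D1:**
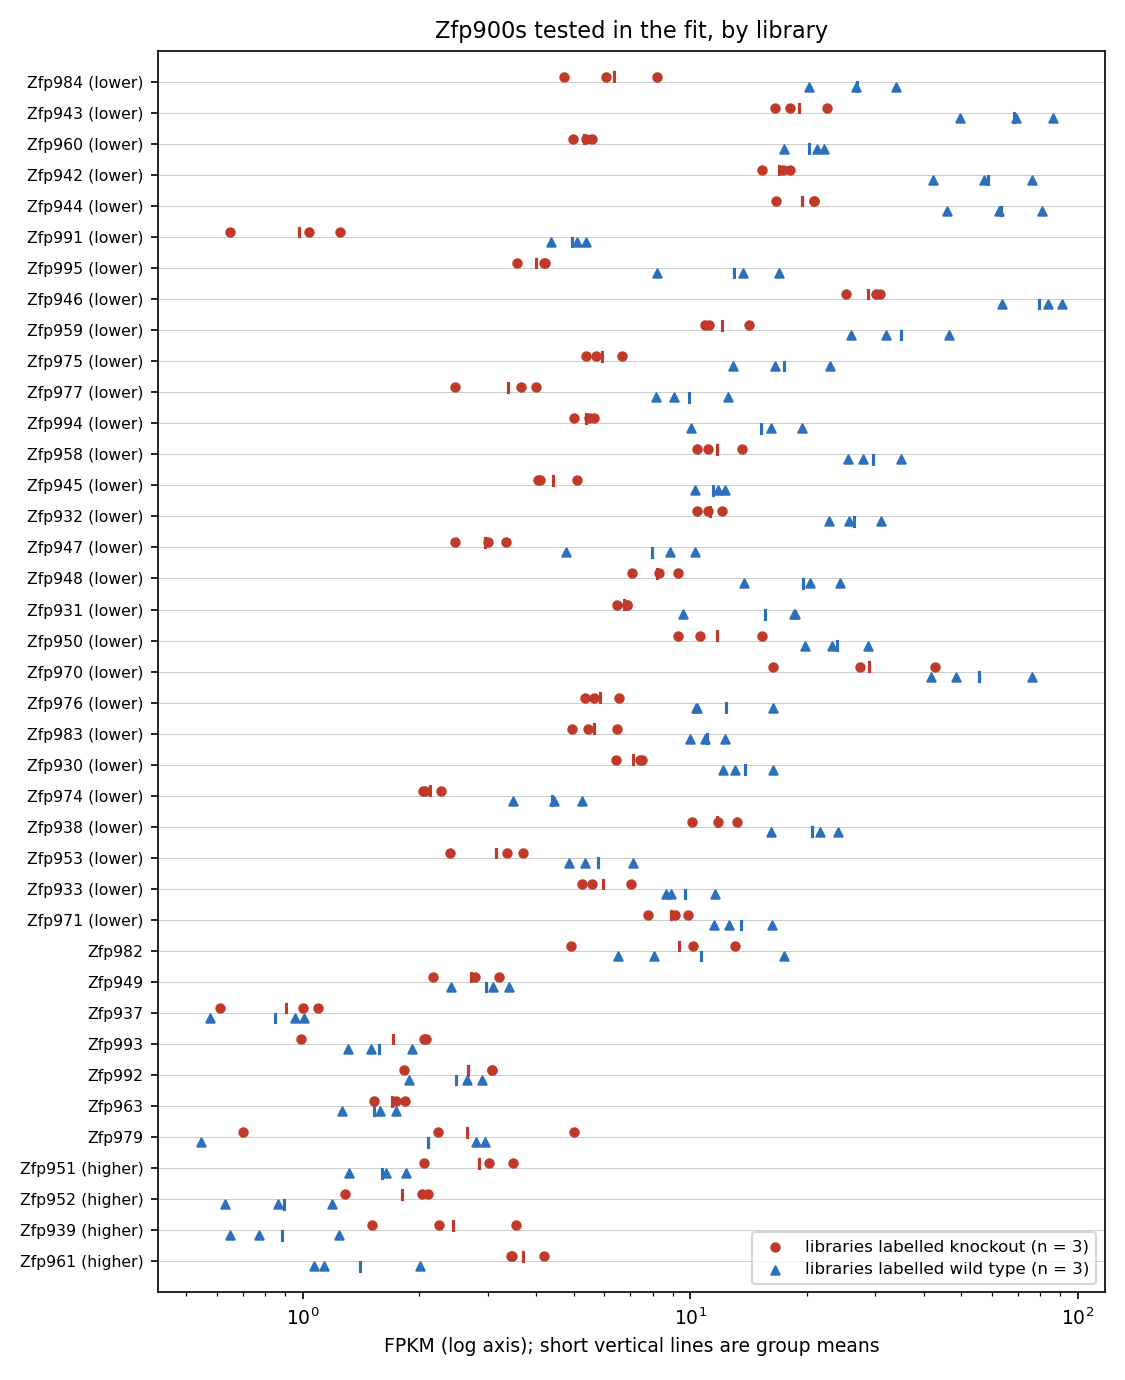
FPKM (log axis) of the 39 tested Zfp900s in each library, ordered by log2 difference, with circles for the 3 libraries labelled knockout, triangles for the 3 labelled wild type, and short lines for group means. In 27 genes all circles lie left of all triangles, and the 4 genes at the bottom show the reverse.

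The largest fall was that of Zfp984 on chromosome 4. It measured 8.22, 4.73 and 6.07 FPKM in the libraries labelled knockout, against 20.3, 26.7 and 34.0 FPKM in those labelled wild type, from 472 to 587 reads per library labelled knockout and 2027 to 3778 per library labelled wild type. The highest knockout value was below the lowest wild type value, and the log2 difference was -1.93 (SE 0.25, limma adjusted p = 0.000577). Zfp943 measured 18.1, 16.6 and 22.5 FPKM in the libraries labelled knockout, against 49.7, 69.4 and 86.1 FPKM in those labelled wild type (log2 difference -1.77, SE 0.23, limma adjusted p = 0.000632). Zfp960 had the smallest spread of the large falls, with 5.37, 4.98 and 5.57 FPKM in the libraries labelled knockout, against 21.3, 17.5 and 22.2 FPKM in those labelled wild type (log2 difference -1.75, SE 0.16, limma adjusted p = 0.000165). This gene shares 75.3% of its 75-base words with other genes, chiefly Zfp97, so reads could be split between them. Zfp991 had the lowest ratio of means of the tested genes, 0.197, with 1.24, 0.650 and 1.04 FPKM in the libraries labelled knockout, against 4.38, 5.37 and 5.11 FPKM in those labelled wild type. The same limit applies to Zfp991, which shares 75.9% of its words, chiefly with Znf41-ps. It also applies to Zfp984, which shares 40.9%, chiefly with Gm13212.

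Zfp946, whose finger stretch is shown above, had the highest mean of all 62 genes and stood at the 98.4th percentile of usable rows. It measured 30.2, 25.3 and 30.8 FPKM in the libraries labelled knockout, against 63.6, 83.9 and 90.9 FPKM in those labelled wild type, from 2593 to 3501 reads per library labelled knockout and 6516 to 14285 per library labelled wild type. Its log2 difference was -1.42 (SE 0.19, limma adjusted p = 0.000682). Zfp942 and Zfp944 were close to Zfp943 in level and in difference. Zfp942 measured 17.3, 15.3 and 18.1 FPKM in the libraries labelled knockout, against 42.4, 57.3 and 76.2 FPKM in those labelled wild type. Zfp944 measured 20.9, 16.7 and 20.8 FPKM in the libraries labelled knockout, against 45.9, 62.6 and 81.0 FPKM in those labelled wild type. Their log2 differences were -1.70 and -1.62.

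Another 5 genes completed the 12 largest falls, and none of them overlapped between groups. Zfp995 averaged 3.99 ± 0.36 FPKM in the libraries labelled knockout and 13.0 ± 4.4 FPKM in those labelled wild type (SD, n = 3 each). Zfp959 averaged 12.1 ± 1.8 FPKM in the libraries labelled knockout and 34.9 ± 10.6 FPKM in those labelled wild type. On chromosome 7, Zfp975 averaged 5.91 ± 0.67 FPKM in the libraries labelled knockout and 17.4 ± 5.1 FPKM in those labelled wild type, and Zfp977 averaged 3.38 ± 0.81 FPKM in the libraries labelled knockout and 9.91 ± 2.28 FPKM in those labelled wild type. Zfp994 averaged 5.38 ± 0.33 FPKM in the libraries labelled knockout and 15.2 ± 4.7 FPKM in those labelled wild type. The log2 differences of these 5 genes ran from -1.44 for Zfp995 to -1.30 for Zfp994.

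Other abundant members fell by less. Zfp958 averaged 11.7 ± 1.7 FPKM in the libraries labelled knockout and 29.5 ± 4.9 FPKM in those labelled wild type, with a log2 difference of -1.26 (SE 0.18). Zfp932, Zfp948, Zfp950 and Zfp938 had log2 differences of -1.16, -1.13, -0.98 and -0.76, with limma adjusted p values of 0.00100, 0.00412, 0.00742 and 0.0123. Zfp970 on chromosome 2 was the only lower gene whose groups overlapped. It measured 42.9, 27.3 and 16.4 FPKM in the libraries labelled knockout, against 76.3, 48.4 and 41.9 FPKM in those labelled wild type (log2 difference -0.97, SE 0.36, limma adjusted p = 0.0490). The call for Zfp970 was lost on leaving out knockout replicate 2 or 3 or any wild type library, with log2 differences from -0.63 to -1.15 in those 5 fits. The remaining 10 lower genes were Zfp945, Zfp947, Zfp931, Zfp976, Zfp983, Zfp930, Zfp974, Zfp953, Zfp933 and Zfp971, with log2 differences from -1.20 for Zfp945 to -0.54 for Zfp971.

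The lower genes were counted by chromosome, and whether their share differed between chromosomes was not tested. All 13 members on chromosome 17 were tested, 12 of them were lower, and their median log2 difference was -1.42. Of these, 10 lie within 1300 kb, at chr17:21567008-22867134 (GRCm38), from Zfp948 to Zfp945, and all 10 were lower. The same interval held 7 other tested genes, of which 6 were lower and 0 higher, with a median log2 difference of -1.0. They include the zinc finger genes Zfp820, Zfp758, Zfp760 and Zfp229. On chromosome 4, 7 of the 16 members were tested, of which 3 were lower and 4 were not called. On chromosome 2, 4 of 11 were tested and 3 were lower, and on chromosome 7, 5 of 9 were tested, with 4 lower and 1 higher.

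The 4 genes that rose were all of low level. Zfp961 on chromosome 8 measured 3.44, 4.19 and 3.46 FPKM in the libraries labelled knockout, against 2.00, 1.13 and 1.07 FPKM in those labelled wild type (log2 difference 0.98, SE 0.19, limma adjusted p = 0.00325). The pseudogene Zfp939 measured 1.51, 3.56 and 2.25 FPKM in the libraries labelled knockout, against 1.24, 0.647 and 0.769 FPKM in those labelled wild type (log2 difference 0.84, SE 0.24, limma adjusted p = 0.0183). Zfp952 measured 1.29, 2.03 and 2.11 FPKM in the libraries labelled knockout, against 1.19, 0.631 and 0.862 FPKM in those labelled wild type. Zfp951 measured 2.05, 3.49 and 3.02 FPKM in the libraries labelled knockout, against 1.31, 1.64 and 1.85 FPKM in those labelled wild type. The log2 differences of Zfp952 and Zfp951 were 0.57 and 0.55, with limma adjusted p values of 0.0298 and 0.0363. Groups did not overlap in any of the 4. However, Zfp939 and Zfp952 reached 1 FPKM in 3 libraries labelled knockout and only 1 labelled wild type. These 2 thus entered the fit through the group where they are high, so their lack of overlap is no separate support. Without the filter neither was called (limma adjusted p = 0.0579 and 0.0712). The count of higher genes also changed with single libraries. It was 2 without knockout replicate 2, 2 without knockout replicate 3, and 1 without wild type replicate 2 or without wild type replicate 3. With quantile normalization only Zfp961 was called, and with median centring Zfp961 and Zfp939 were.

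The 7 tested genes that were not called were Zfp982, Zfp949, Zfp937, Zfp993, Zfp992, Zfp963 and Zfp979, with log2 differences from -0.15 to 0.17. Zfp982 was the most abundant of them and varied widely within groups, with 13.0, 4.91 and 10.1 FPKM in the libraries labelled knockout and 8.06, 6.52 and 17.4 FPKM in those labelled wild type. Zfp979 varied more, with 2.23, 0.701 and 5.02 FPKM in the libraries labelled knockout and 0.547, 2.79 and 2.96 FPKM in those labelled wild type. For these 2 genes the standard errors of the log2 difference were 0.42 and 0.54, and the 95% intervals ran from -1.12 to 0.83 and from -1.12 to 1.46, so changes within these intervals were not resolved. Zfp991, Zfp992 and Zfp993 lie near each other on chromosome 4 and share sequence, but Zfp992 and Zfp993 had log2 differences of 0.07 (SE 0.21) and 0.05 (SE 0.21), beside -1.60 (SE 0.17) for Zfp991, and the differences between these genes were not tested.

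The 23 genes under the filter had means over the 6 libraries from 0.00283 to 0.959 FPKM, with a median of 0.139 FPKM. Zfp969 had the highest mean, with 0.603, 1.65 and 2.36 FPKM in the libraries labelled knockout, against 0.521, 0.503 and 0.111 FPKM in those labelled wild type. Its groups did not overlap, and every 75-base word of its transcripts is shared with another gene. Zfp934 measured 0.332, 0.289 and 0.480 FPKM in the libraries labelled knockout, against 0.814, 1.53 and 1.49 FPKM in those labelled wild type, from 47 to 74 reads per library labelled knockout and 169 to 428 per library labelled wild type. In a limma fit of 20529 genes without a filter, Zfp934 was lower (log2 difference -0.72, adjusted p = 0.0248), the only call among the 23. That fit gave 27 lower and 1 higher of all 62 members, where 5.09% of all genes were lower and 15.4% higher, and 26 of the 27 were among the 28 lower genes above. The 27 dropped to 13 without knockout replicate 2, 14 without knockout replicate 3, 12 without wild type replicate 2 and 15 without wild type replicate 3, while the 1 higher gene, Zfp961, became 7 without knockout replicate 1, 2 without knockout replicate 2, and 0 without knockout replicate 3, wild type replicate 2 or wild type replicate 3.

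Below these, read numbers limited what could be seen. Zfp972 averaged 0.493 ± 0.123 FPKM in the libraries labelled knockout and 0.781 ± 0.387 FPKM in those labelled wild type, and Zfp966 averaged 0.388 ± 0.076 FPKM in the libraries labelled knockout and 0.521 ± 0.203 FPKM in those labelled wild type, both with overlap. Zfp980 and Zfp964 also overlapped, at 0.608 ± 0.213 and 0.479 ± 0.116 FPKM in the libraries labelled knockout and 0.437 ± 0.257 and 0.448 ± 0.108 FPKM in those labelled wild type. Zfp986 had 0 reads in all 3 libraries labelled knockout and 10 reads in wild type replicate 2 alone. Zfp936 had 0 reads in the libraries labelled knockout and 2 reads in wild type replicate 1 alone. Zfp954 had 8, 32 and 7 reads in the libraries labelled knockout, against 3, 0 and 0 reads in those labelled wild type, and its transcripts have 50.4% GC, where the median of all 62 genes is 38.7%. These 3 genes were picked after their values were seen.

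**Figure D2:**
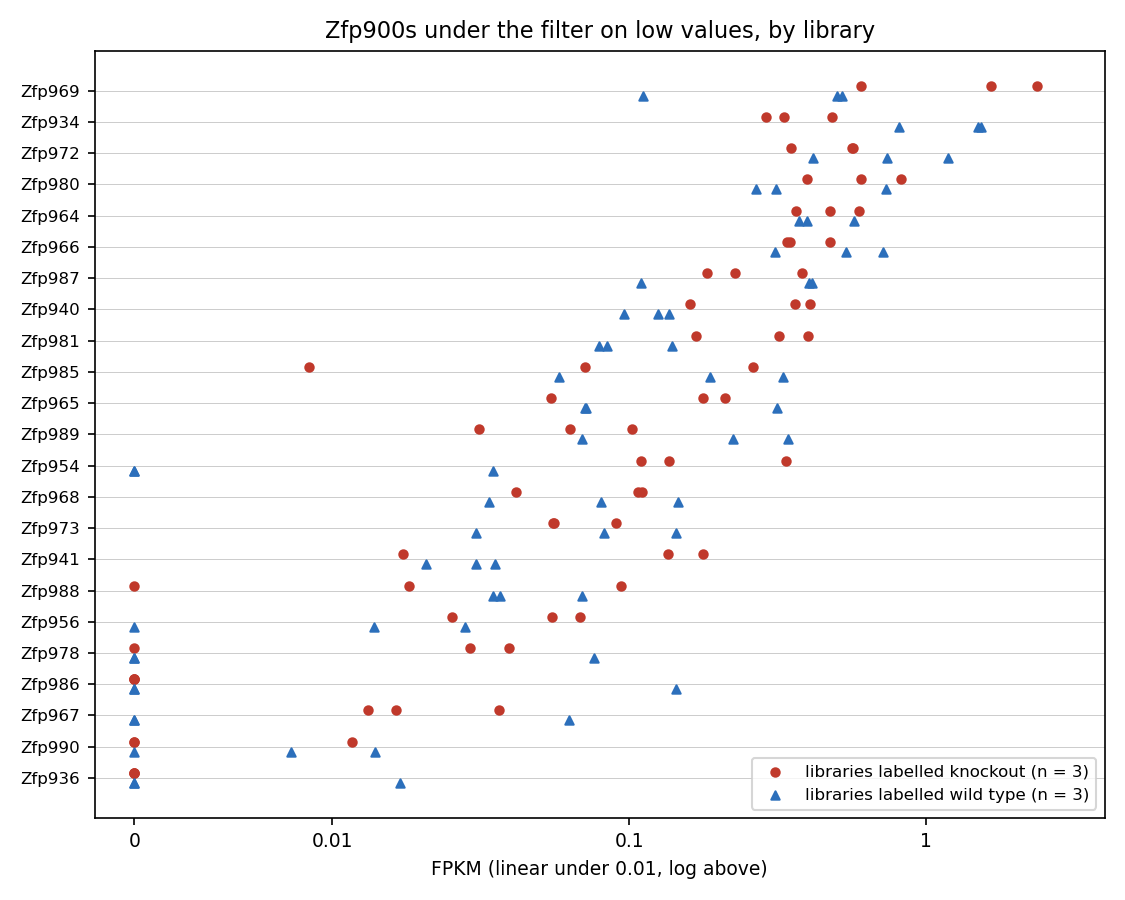
FPKM of the 23 Zfp900s under the filter, ordered by mean, on an axis that is linear under 0.01 FPKM and logarithmic above, with circles for libraries labelled knockout and triangles for those labelled wild type (n = 3 each). All circles of Zfp934 lie left of its triangles, the circles of Zfp969, Zfp940, Zfp981 and Zfp954 lie right of theirs, and the other genes overlap.

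Transcript GC content went with the group difference over all genes, and the Zfp900s are poor in GC. The 39 tested genes had 35.6 to 44.8% GC in their exons with a median of 38.7%, against a median of 44.4% over all tested genes with a value. The loess trend of the group difference on GC content was -0.50 on the log2 scale at 36% GC, -0.33 at 38%, 0.24 at 44% and 0.69 at 50%. The libraries did not share 1 trend within groups. At 36% GC the trends of knockout replicates 1 to 3 stood at -0.27, -0.37 and -0.12, and those of wild type replicates 1 to 3 at 0.16, 0.20 and 0.39. Wild type replicate 3, in which most lower Zfp900s peaked, thus had the highest trend for GC-poor transcripts. Across the 39 genes the log2 difference and GC content had a Spearman correlation of 0.49 and a Pearson correlation of 0.62, against a Spearman correlation of 0.36 over all 5539 tested genes with a GC value. These describe the genes, which share the same 6 libraries and often sequence.

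Within the Zfp900s, the 28 lower genes had a median of 38.1% GC and the 4 higher genes a median of 43.9%. All 4 genes that rose lay above 41% GC, and all 26 tested members under 40% GC were either lower (22) or not called (4). Members with little GC were not all lower. Zfp992, with 36.9% GC and a mean of 2.57 FPKM, had a log2 difference of 0.07 (SE 0.21). Zfp946, with 36.8% GC and a mean of 54.1 FPKM, had -1.42 (SE 0.19). These genes thus differ in level, and Zfp992 shares 34.5% of its 75-base words, chiefly with Zfp991, against 0.56% for Zfp946. Zfp974, with 42.4% GC, was lower (log2 difference -0.78, SE 0.17, limma adjusted p = 0.00596). It measured 2.04, 2.06 and 2.27 FPKM in the libraries labelled knockout, against 3.50, 4.45 and 5.25 FPKM in those labelled wild type.

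**Figure D3:**
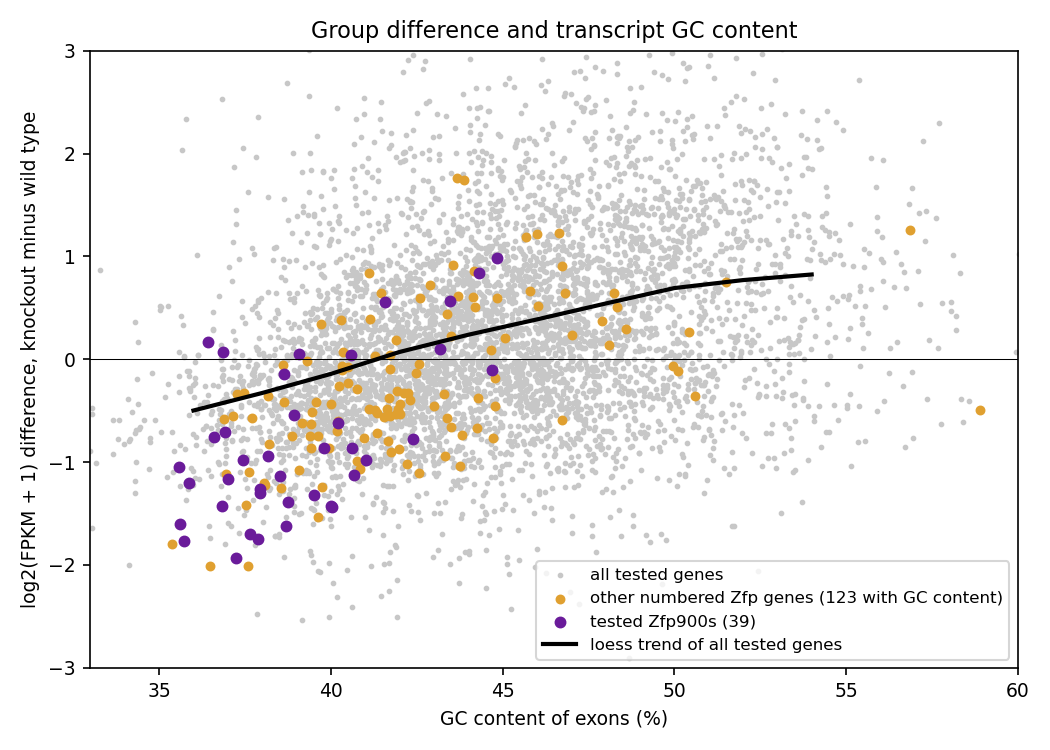
Log2(FPKM + 1) difference of knockout minus wild type against exon GC content for all tested genes (grey), the other numbered Zfp genes (orange) and the 39 tested Zfp900s (purple), with the loess trend over all tested genes in black. Of the 39 genes, 30 lie below the trend. The axes end at 33 and 60% GC and at -3 and 3, and genes beyond them are not drawn.

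When the loess trend on GC content was taken out of every library before the limma fit, 22 members were lower, 2 were higher and 15 were not called, where 28.2% of all genes were lower and 24.4% higher. All 22 were among the 28 lower genes of the fit without removal. The median log2 difference of the 39 genes was then -0.70, and that of all genes was -0.08. Zfp984 had -1.53 (limma adjusted p = 0.00116), Zfp943 had -1.25 (0.00128), Zfp960 had -1.41 (0.000342) and Zfp946 had -0.99 (0.00205). The calls of 6 genes were lost, with values of -0.51 for Zfp931, -0.60 for Zfp950, -0.95 for Zfp970, -0.31 for Zfp938, -0.28 for Zfp953 and -0.29 for Zfp971. Among the genes that rose, Zfp961 had 0.68 (limma adjusted p = 0.0109) and Zfp951 had 0.52 (0.0438), while Zfp939 and Zfp952 were no longer called. The count of 2 higher genes was 4 without knockout replicate 1 and 1 without knockout replicate 3, wild type replicate 1 or wild type replicate 3.

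Genes of like GC content were also read directly. Under 40% GC, 22 of 26 tested members were lower, or 84.6%, where 304 of the 808 other tested genes were lower, or 37.6%. At a mean of at least 5 FPKM the counts were 20 of 21 members and 200 of 479 other genes, or 95.2% and 41.8%. After removal of the GC trend, 17 of the 26 members and 172 of the 808 other genes were lower, or 65.4% and 21.3%. At 40% GC and over, 6 of 13 tested members were lower and 4 higher, where 16.9% of 4692 other genes were lower and 37.6% higher.

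Zinc finger genes outside the Zfp900s were read as well. Of 104 other tested genes with at least 5 copies of the linker motif, 56 (53.8%) were lower and 9 (8.65%) higher, with a median log2 difference of -0.49 and a median GC content of 40.0%, and 64 of them are Zfp genes with other numbers. Of 125 Zfp genes with other numbers tested, 52 (41.6%) were lower and 22 (17.6%) higher, with a median log2 difference of -0.37 and a median GC content of 41.7%. Over all tested genes, 20.4% were lower and 33.7% higher. Under 40% GC, 25 of 32 of the numbered genes were lower, or 78.1%, with a median of -0.75, beside -1.18 for the 26 Zfp900s. After removal of the GC trend the median of those with a GC value was -0.41, beside -0.70 for the 39 Zfp900s. With median centring, 75 of the 125 (60.0%) were lower and 11 (8.8%) higher, where 33.3% of all genes were lower and 25.4% higher. The largest falls among them were those of Zfp820 and Zfp97, both on chromosome 17, and Zfp268. Zfp820 measured 5.92, 8.02 and 6.53 FPKM in the libraries labelled knockout, against 24.0, 32.6 and 35.9 FPKM in those labelled wild type, and Zfp97 averaged 6.05 ± 0.88 FPKM in the libraries labelled knockout and 27.4 ± 3.7 FPKM in those labelled wild type. Zfp268 averaged 1.06 ± 0.34 FPKM in the libraries labelled knockout and 6.37 ± 1.76 FPKM in those labelled wild type. The largest rises were those of Zfp426, Zfp35 and Zfp467, with log2 differences of 1.76, 1.74 and 1.25. Just outside the naming rule, Zfp955a and Zfp955b were not called, with log2 differences of -0.47 (SE 0.19) and -0.11 (SE 0.18).

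Among 24 genes known to work with KRAB zinc finger proteins or related silencing, 14 were tested. Of these, 4 were lower, 2 higher and 8 not called, where 20.4% of all tested genes were lower and 33.7% higher. The median log2 difference of the 14 was -0.04. The balance depended on the filter. Without it 6 of the 24 were higher and 2 were lower, where 15.4% of all genes were higher and 5.09% lower. Suv39h1, Hdac1, Chd4 and Dnmt1 were added to the higher genes, and Trim33 and Tasor were no longer lower (limma adjusted p = 0.0920 and 0.0887). The added genes have 49.1, 50.2, 53.6 and 53.8% GC, in that order. The loess trend of the group difference over all tested genes was 0.54 at 48% GC and 0.82 at 54%. The part of GC content in these calls was not tested. Of the 10 genes under the filter, 7 had every value in the libraries labelled knockout above every value in those labelled wild type. The same held for 38.0% of all tested genes, which are all above the filter, and its share among all genes under the filter was not counted. The 7 genes thus have no like share to be read beside. Morc3, an ATPase of chromatin silencing, averaged 6.61 ± 0.60 FPKM in the libraries labelled knockout and 14.2 ± 2.8 FPKM in those labelled wild type (log2 difference -0.98, limma adjusted p = 0.00340). Setdb1, the methyltransferase named above, averaged 1.14 ± 0.04 FPKM in the libraries labelled knockout and 0.455 ± 0.036 FPKM in those labelled wild type, and its log2 difference of 0.56 (limma adjusted p = 0.00398) became 0.06 after removal of the GC trend, no longer a call. Hdac2, a histone deacetylase, averaged 17.1 ± 2.9 FPKM in the libraries labelled knockout and 8.77 ± 0.86 FPKM in those labelled wild type. Trim24, a transcriptional cofactor related to Trim28, averaged 7.39 ± 3.48 FPKM in the libraries labelled knockout and 20.9 ± 1.9 FPKM in those labelled wild type (log2 difference -1.47, limma adjusted p = 0.00482). Trim28 itself, with 57.1% GC, was listed at 0 to 0.0730 FPKM in the libraries labelled knockout and at 0 to 0.0118 FPKM in those labelled wild type, too low to test. Rsl1 was not called, with 4.16, 5.34 and 5.64 FPKM in the libraries labelled knockout, against 6.29, 5.34 and 5.89 FPKM in those labelled wild type.

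The level of a Zfp900 went with how much of its sequence is shared. Transcripts were cut into all words of 75 bases, and the share of words found in transcripts of another gene was counted. The median share was 4.8% in the 39 tested genes and 54.8% in the 23 under the filter. Of 27 genes sharing under 5% of their words, 21 were tested, 15 were lower and 4 higher, and the median of their mean levels was 7.83 FPKM. Of 20 genes sharing 5 to 50%, 15 were tested and 11 were lower, with a median level of 4.36 FPKM. Of 15 genes sharing at least 50%, 3 were tested and 2 were lower, with a median level of 0.15 FPKM. How the counting treated reads that match several genes is not given in the sources used here, and its part in the low levels was not tested. The tested genes sharing under 5% had a median log2 difference of -0.87.

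**Figure D4:**
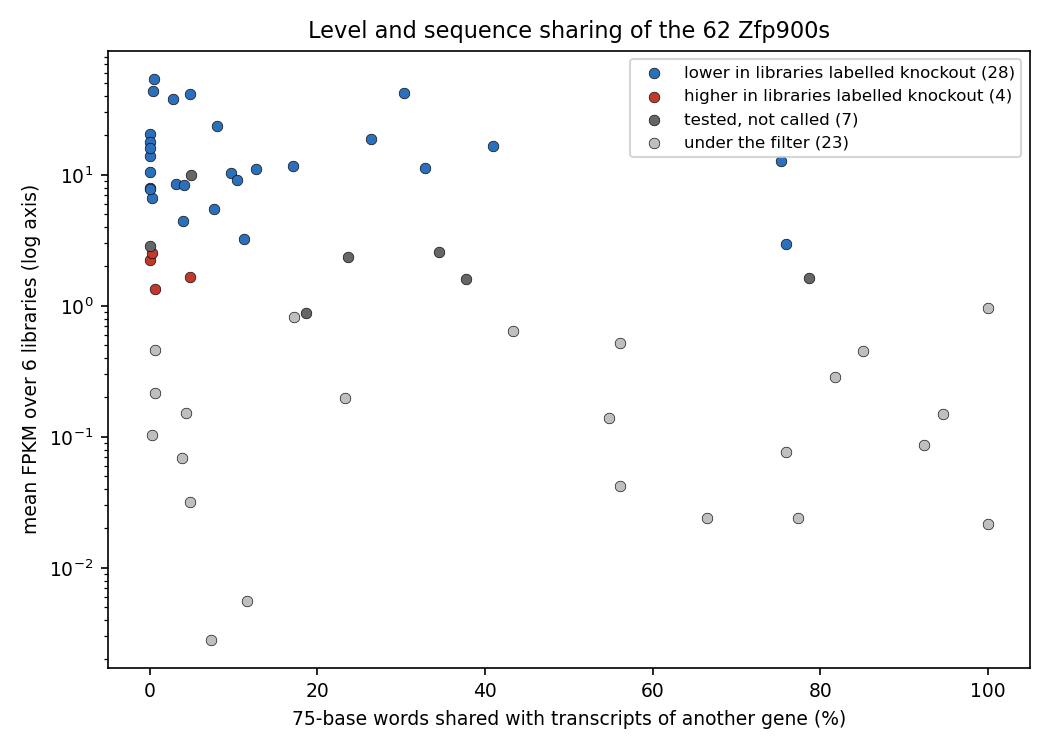
Mean FPKM over the 6 libraries (log axis) against the share of 75-base words found in another gene for all 62 Zfp900s, coloured by call. All 4 genes higher in the libraries labelled knockout share under 5%, and 12 of the 15 genes that share at least 50% were under the filter.

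RefSeq promoter windows (GRCm38.p6, from 250 bases before the start to 50 after it) were given for 52 members, 25 of them lower. The word CACGTGAC, on either strand, contains the E-box CACGTG and was chosen after the promoters had been read. It occurred in 7 of the 25 lower genes, namely Zfp933, Zfp942, Zfp943, Zfp944, Zfp946, Zfp947 and Zfp994. It was found in 7 of 35 tested members, in 0 of 17 members under the filter, and in 2.33% of 27025 promoters of all genes. The E-box CACGTG alone occurred in the same 7 members and in 7.24% of all promoters. Of these 7, 6 lie on chromosome 17, and Zfp942 and Zfp943 lie head to head with 87 bases between their starts, so they share the same stretch. The word CCAAT, on either strand, occurred in 15 of 25 lower genes, 23 of 35 tested members, 17 of 17 members under the filter and 37.9% of all promoters. The word TATAAA, on either strand, occurred in 0 of the 52 promoters and in 14.2% of all. A match is a match of letters and was not tested for binding.

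The 250 bases before the start are shown for 3 of these genes, since they carry the shared word at different distances. Capitals mark CACGTGAC or its reverse complement, which overlap in Zfp943, from position -48 to -39 relative to the start. In Zfp946 the word lies at -10 to -3, and in Zfp933 it lies at -112 to -105. The stretches are chr17:21962309-21962558 on the plus strand, chr17:22423952-22424201 on the plus strand and chr4:147848419-147848668 on the minus strand (GRCm38.p6), each written 5′ to 3′ on the strand of its gene.
Zfp943: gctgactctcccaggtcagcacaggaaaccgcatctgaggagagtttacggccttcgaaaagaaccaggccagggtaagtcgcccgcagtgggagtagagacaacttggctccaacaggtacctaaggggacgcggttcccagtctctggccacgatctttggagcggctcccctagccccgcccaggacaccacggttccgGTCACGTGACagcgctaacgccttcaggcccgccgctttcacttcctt
Zfp946: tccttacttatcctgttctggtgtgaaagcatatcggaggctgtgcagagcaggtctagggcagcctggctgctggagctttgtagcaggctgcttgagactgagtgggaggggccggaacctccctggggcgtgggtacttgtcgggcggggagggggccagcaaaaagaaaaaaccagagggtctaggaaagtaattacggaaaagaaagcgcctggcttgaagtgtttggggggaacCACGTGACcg
Zfp933: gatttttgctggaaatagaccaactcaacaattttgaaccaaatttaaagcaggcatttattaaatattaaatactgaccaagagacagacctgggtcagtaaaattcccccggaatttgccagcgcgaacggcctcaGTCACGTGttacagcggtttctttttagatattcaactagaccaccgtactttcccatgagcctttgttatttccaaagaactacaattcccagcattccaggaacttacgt

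The CG content of these windows also differed, with 17 CG dinucleotides in Zfp943, 9 in Zfp946 and 8 in Zfp933. The median was 7 in the 25 lower genes with a window, 4 in the genes under the filter and 6 over all genes. The genes with the shared word had log2 differences from -1.77 for Zfp943 to -1.13 for Zfp947 on chromosome 17, and -0.62 for Zfp933 on chromosome 4. Over all 28 lower genes the range was -1.93 to -0.54. Zfp984, with the largest fall, had no match in its window.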

How the data were processed

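RNA-seq libraries of 6 livers were analysed from the authors' deposited FPKM values, 1 per row with an identifier and a symbol, per the file headers. Per the submitters' processing notes, HISAT2 and GRCm39 were used. Sources used here give no counting tool and no annotation. In 1 table the header code differed from the title of its sample, and the title was used. Identifiers and symbols named different genes. FPKM times the GENCODE M21 exon length by symbol was a whole multiple of 1 step per library for 98.7 to 99.0% of values under 40 reads (tolerance 0.15 read) outside the chromosome 1 block at the top of the tables, against 33.0 to 38.6% inside it, so symbols were used, and the block and 119 rows without a symbol were left out. The steps gave the depths and read numbers, and for 61 of the 62 members every library came out whole (Zfp967 did not). 1 read on a 1 kb transcript was worth 0.0206 to 0.0489 FPKM. All genome coordinates are from GRCm38.

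The main test was limma (version 3.58.1, under R 4.3.3, with robust moderation and a mean-variance trend) on log2(FPKM + 1), with labelled genotype as the only term, at least 1 FPKM in at least 3 libraries, and Benjamini-Hochberg adjusted p under 0.05 over all genes tested. Differences are knockout minus wild type on that scale, which understates changes of low genes. The fit was tested on simulated data. The labels do not say that each library came from its own mouse, so p-values measure the spread between libraries. Genes named with values were up to 12 largest rises and 12 largest falls past the threshold, the 6 other members of highest mean, the 6 highest under the filter and any of those called without it. Others were named after their values were seen. Members, lists and tests were chosen with earlier results of these data known. The deviations of same-numbered libraries correlated at -0.05, -0.10 and 0.18, and those of other pairs at -0.35 to 0.35. With 3 libraries per group this cannot show whether replicate numbers pair the samples, and the main fit did not pair them. Summaries were made in Python 3.11.15 (pandas 2.3.3, numpy 2.4.6) and figures with matplotlib 3.10.9.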

Additional observations from a re-analysis of the deposited data

How the results depend on the processing

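The count of 28 lower Zfp900s stayed within 22 to 28 under other filters, pseudocounts, moderation, scalings and trend removals, was 23 at an adjusted p under 0.01, and was 18 with a log2 difference of at least 1. Leaving out each library gave 24 to 27. The count of 4 higher genes was 1 without a filter, 2 with median centring, 1 with quantile normalization, 1 with equal sums outside mitochondrial transcripts, 2 with the GC trend removed, 1 at an adjusted p under 0.01, 0 with a log2 difference of at least 1, and 1 to 4 on leaving out each library. Without a filter, 27 lower genes became 44 with median centring, which moves genes at 0 as well (71.0% of members, where 57.1% of all genes were lower), and 12 to 24 on leaving out each library. The 1 higher gene of that fit became 3 with a pseudocount of 0.1, 2 with median centring, 7 with the GC trend removed (11.3% of members, where 14.5% of all genes were higher) and 0 to 7 on leaving out each library. With the GC trend removed, leaving out each library (chosen after seeing the data) gave 19 to 23 lower and 1 to 4 higher genes.

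The median log2 difference of -0.97 was -0.16 without a filter, -0.70 at a filter of 0.1 FPKM, -0.50 with a pseudocount of 0.1 and no filter, -1.26 with median centring, -1.23 with equal sums outside mitochondrial transcripts, -0.70 with the GC trend removed and -0.68 with GC and length trends removed. Leaving out each library gave -1.04 to -0.84. The looser filters add genes near 0, where the scale compresses differences. The scale does not compress the ratio of knockout mean to wild type mean. The median of this ratio was nearer to equality in the genes under the filter than in the tested genes. Its range was wider under the filter, from 0 to 16.8, against 0.197 to 2.75 in the tested genes. Rises and falls can offset each other in a median, so it does not show that single genes under the filter differed less. The cause of the change in the median log2 difference was not tested for any setting. Of 396 values for the 22 named tested members under these settings, 350 kept their call, 46 lost it and 0 reversed.

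With the replicate number as a block, 28 genes were lower and 2 higher. The block with the GC correction gave 21 lower and 2 higher, and the block without a filter gave 22 lower and 1 higher. At these depths a count of 10 reads or fewer, as for Zfp986 and Zfp936, resolves no difference.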
